A study of Mus musculus with 2 samples.

Results

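Extracellular matrix transcripts were followed in 2 single-cell libraries from mouse lung, 1 titled injured and 1 titled control. The matrix genes were a fixed list of 40 symbols that code for collagens, laminins, elastic-fibre proteins, proteoglycans, adhesive glycoproteins and lysyl oxidases. All 40 were found among the 32285 genes of the count tables. The mice were C57BL/6 and both libraries carried the SP-C I73T genotype, a mutation of surfactant protein C, the hydrophobic surfactant protein made by alveolar type 2 cells. Lungs were lavaged, perfused, digested with collagenase D and depleted of red cells before library preparation with the 10x Genomics 3′ version 3 chemistry. The design text sets steady state against 14 days after injury, and the protocol names a single gavage of tamoxifen at 175 mg/kg in corn oil, by which a neomycin cassette is excised so that the mutant allele is expressed more strongly. The treatment tags run against the titles: the library titled injured is tagged untreated, and the library titled control is tagged tamoxifen treated. Groups follow the titles here, so each direction below rests on them. The ages and the number of animals behind each library are not given in the sources used here. With 1 library per group, no difference below has a replicate check and none was tested.

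The extracellular matrix of the lung has 2 main forms. Interstitial matrix holds fibrillar collagens and elastic fibres, is made mostly by fibroblasts and smooth muscle cells, and gives the alveolar wall its strength and recoil. Basement membranes are thin sheets of collagen IV, laminin, nidogen and perlecan laid down by endothelial and epithelial cells together with their neighbours. After lung injury a provisional matrix rich in fibronectin and versican is known to form, and lysyl oxidases cross-link the collagen and elastin that follow.

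The collagen IV pair shows how tightly some matrix genes are linked in the genome. Col4a1 (chr8:11198423-11312826, minus strand) and Col4a2, which lies on the plus strand, are annotated head to head in GRCm38, and their first bases overlap by 22 bases. That overlap is in capitals in the first sequence, and in the second the capitals mark a CCAAT box, the letters CCAAT, which begins 32 bases before the annotated start of Col4a2. Both are shown because the ratios of this pair are followed through 3 cell classes below. They come from RefSeq sequence of build GRCm38.p6, plus strand, chr8:11312801-11312830 and chr8:11312761-11312790.
shared start: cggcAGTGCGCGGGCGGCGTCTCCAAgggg
CCAAT box: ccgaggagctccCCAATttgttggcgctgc
CCAAT was searched on both strands (CCAAT or ATTGG) in the 250 bases before each annotated start. It occurs in 33.85% of 32851 such windows, and in at least 1 window of 8 of the 25 matrix genes in the RefSeq table. A match describes the letters and not a binding site.

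After removal of barcodes with under 500 UMIs, under 200 genes or over 15% mitochondrial UMIs, and of 44 barcodes per library scored as doublets, 2302 injured and 2298 control cells remained. Median depth was 3259.5 UMIs (1419 genes) per injured cell and 4499.5 UMIs (1679.5 genes) per control cell, and 1 barcode occurred in both libraries. Cells were clustered without the 40 genes and without 109 related genes, so that matrix levels did not define the classes. Of the injured barcodes scored as doublets 12 lay with the stromal cells, and of the control barcodes 8 did. The removed barcodes carried 25.1% of the injured and 12.6% of the control matrix UMIs other than Fn1, so stromal results are given with them as well where they matter.

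Matrix genes made up 0.379% of injured UMIs (74650) and 0.126% of control UMIs (20159). Fn1, which encodes fibronectin, accounted for 55.3% of the injured and 21.5% of the control matrix UMIs. Without Fn1 the shares were 0.169% and 0.0985%. A gene was called higher or lower when its level in counts per 1000000 UMIs (CPM), summed over the cells compared, differed by at least 1.5-fold and it had at least 20 counts over both libraries. By this size rule 24 of the 40 matrix genes were higher in the injured library, beside 21.2% of all 14511 genes that passed the count minimum. Another 8 were lower, beside 15.7% of all genes, and 8 did not pass the rule. The median log2 ratio, with 10 CPM added to each level, was 0.43 for the matrix genes and 0.03 for all genes.

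These counts rested on a small number of deeply sequenced cells. When each cell was given the same weight, 8 matrix genes were higher and 12 lower, with a median log2 ratio of -0.03, beside 22.1% and 20.5% of all genes. Leaving out 26 cells of a mesothelial-like sub-cluster, described below, gave 12 higher and 15 lower and a median of -0.01, beside 20% and 16.8% of all genes. With all cells thinned to 1000 UMIs, 10 of 34 genes were higher and 9 lower, beside 21.4% and 17.9%. Of the genes called over all cells, Fn1, Tnc, Lox, Hspg2, Vcan and Thbs1 were higher, and Col13a1, Postn, Mfap4 and Ltbp4 were lower, in every whole-library alternative in which they passed the count minimum. Ratios below carry 95% intervals that cover counting error only, not differences between animals.

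**Figure D1:**
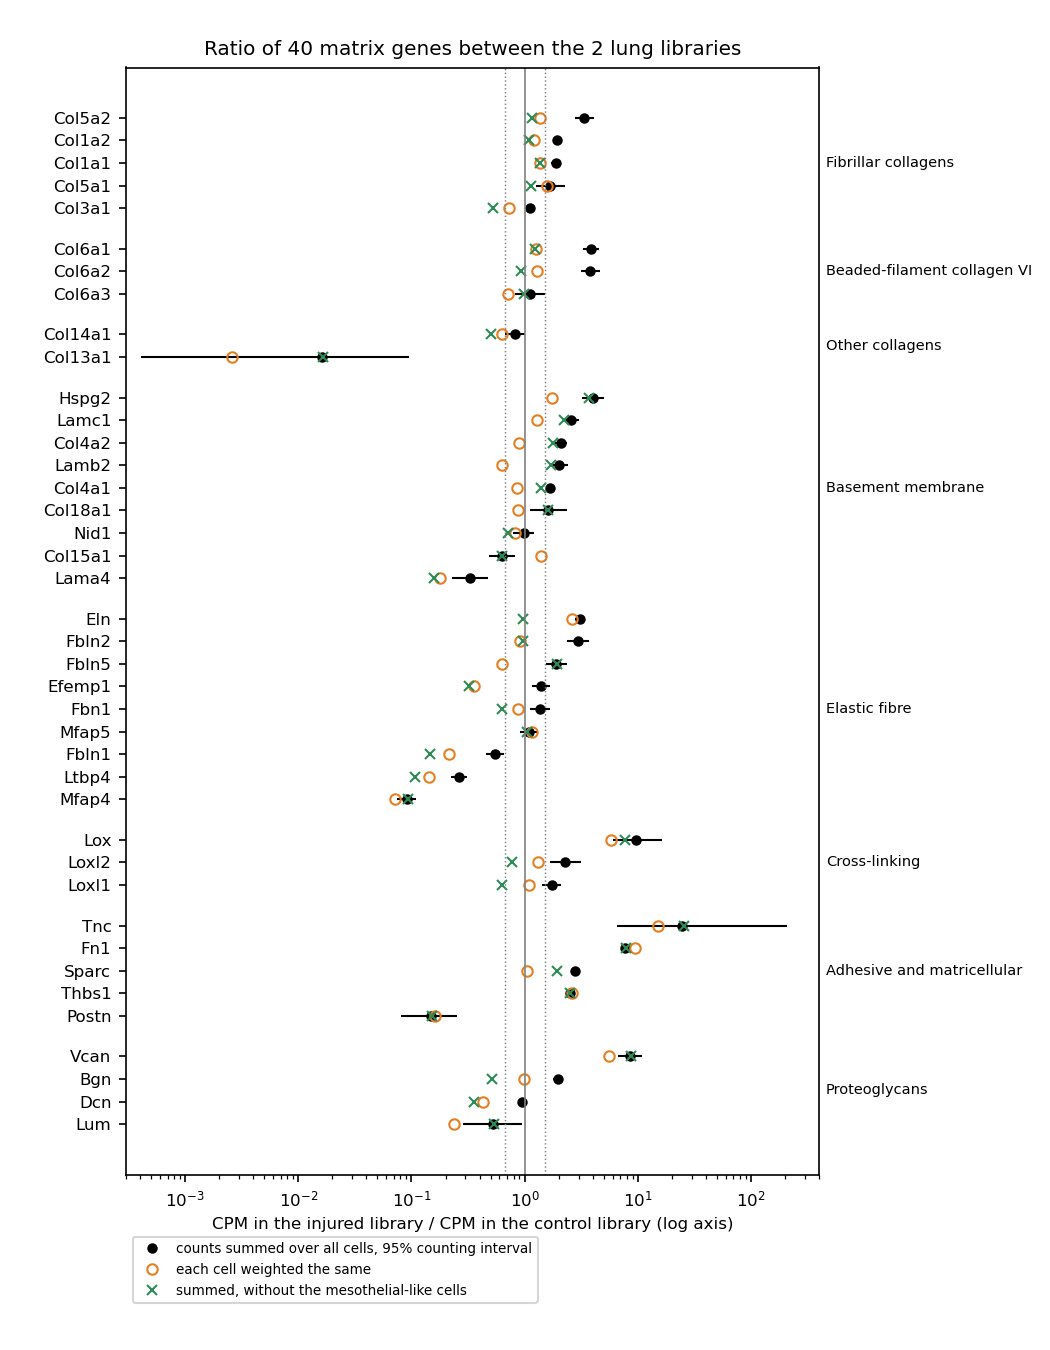
Ratio of the injured to the control level (CPM, log axis) for the 40 matrix genes, ordered by role. Black points and lines are counts summed over all cells with 95% counting intervals, open orange circles weight each cell the same, green crosses leave out the mesothelial-like cells, and dotted lines mark the 1.5-fold rule. Fn1 sits near 7.74 and Mfap4 near 0.0905 under all 3, while Bgn, Eln and the collagen VI chains move toward or below 1 for at least 1 of them.

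Among the fibrillar collagens, which form the tensile fibres of connective tissue, 4 of 5 were higher in the injured library and Col3a1 did not pass the rule. Col1a1 and Col1a2 encode the 2 chains of collagen I. Col1a1 (chr11:94936224-94953042) was at 72.7 injured and 38.7 control CPM, a ratio of 1.88 (1.71 to 2.07). Col1a2 was at 98.3 and 50.7 CPM, a ratio of 1.94 (1.79 to 2.11). Col3a1, the collagen of more compliant fibres, was at 83.4 and 74.5 CPM, a ratio of 1.12. Col5a2, a chain of the collagen V that sets fibril diameter, had 535 against 129 counts, a ratio of 3.38 (2.78 to 4.13), and Col5a1 had 139 against 67 counts, a ratio of 1.69. Weighted by cell, the ratios were 1.38 for Col1a1, 1.20 for Col1a2, 0.732 for Col3a1, 1.58 for Col5a1 and 1.38 for Col5a2, so only Col5a1 still passed the rule.

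Collagen VI forms beaded filaments around cells and next to basement membranes. Col6a1 was at 45.6 injured and 11.8 control CPM, a ratio of 3.86 (3.30 to 4.54). Col6a2 was close behind at 30.1 and 7.91 CPM, a ratio of 3.80 (3.14 to 4.64). Col6a3, the longest chain of the trimer, was at 5.48 and 4.92 CPM, a ratio of 1.11 (0.825 to 1.51). The mesothelial-like cells held 75.6% of injured Col6a1 and 80.3% of injured Col6a2 counts but 22.2% of injured Col6a3 counts. Without those cells the ratios were 1.22 for Col6a1, 0.939 for Col6a2 and 0.987 for Col6a3.

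Elastic-fibre genes split in both directions, with 3 of 9 higher, 3 lower and 3 neither. Eln, which encodes elastin, the core of the fibre, was at 109 injured and 35.3 control CPM, a ratio of 3.09 (2.81 to 3.39). Fbln2, a fibulin of vessel walls, was at 19.8 and 6.72 CPM, a ratio of 2.94. That ratio turned below 1 weighted by cell and without the mesothelial-like cells, with a lowest value of 0.919. Fbln5, a fibulin required for elastic-fibre assembly, was at 15.7 and 8.22 CPM, a ratio of 1.91 (1.55 to 2.36). The Fbln5 ratio turned below 1 weighted by cell and with cells thinned to 1000 UMIs, with 0.626 the lowest over 11 alternatives. Mfap4, a glycoprotein of the fibre surface, went the other way with 116 injured and 1044 control counts, 11.1-fold lower (9.11 to 13.5). Ltbp4, which binds latent TGF-beta and fibulin-5, had 208 and 639 counts, 3.77-fold lower (3.22 to 4.43). Fbln1 had 202 and 298 counts, 1.81-fold lower, and turned to a ratio of 1.35 with no minimum of UMIs or genes per cell. Fbn1 (fibrillin-1), Efemp1 (fibulin-3) and Mfap5 had ratios of 1.36, 1.40 and 1.08 and did not pass. The Eln ratio was 0.965 without the mesothelial-like cells, whereas that of Mfap4 was 0.0927.

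Lox, Loxl1 and Loxl2 are lysyl oxidases, which oxidise lysines so that collagen and elastin can cross-link, and all 3 were higher. Lox had 225 injured and 19 control counts, a ratio of 9.65 (6.03 to 16.3). Loxl2 had 158 and 56 counts, a ratio of 2.30, and Loxl1 had 321 and 151 counts, a ratio of 1.73. Lox kept its direction with ratios of 5.86 weighted by cell and 7.68 without the mesothelial-like cells. Loxl1 and Loxl2 did not, at 0.626 and 0.774 without those cells.

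Of the adhesive and matricellular genes, 4 of 5 were higher. Fn1 was at 2093 injured and 270.3 control CPM, a ratio of 7.74 (7.51 to 7.99). Thbs1, which encodes thrombospondin-1, an activator of latent TGF-beta, was at 146 and 57.7 CPM, a ratio of 2.53 (2.35 to 2.72). Sparc, a collagen-binding protein, was at 394 and 142 CPM, a ratio of 2.78 (2.65 to 2.91), which became 1.05 weighted by cell. Tnc, tenascin-C, had 61 injured and 2 control counts, a ratio of 24.8 (6.59 to 210). Postn, periostin, had 16 injured and 88 control counts, 6.75-fold lower (3.94 to 12.3).

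The proteoglycans also differed among themselves. Vcan, the large hyaluronan-binding versican, had 845 injured and 81 control counts, a ratio of 8.5 (6.76 to 10.8). Bgn, biglycan, was at 86.4 and 44.1 CPM, a ratio of 1.96, and at 0.514 without the mesothelial-like cells. Dcn, decorin, which coats collagen fibrils, was at 143 and 151 CPM, a ratio of 0.947. Over 11 whole-library alternatives the Dcn ratio ran from 0.358 to 5.44 and kept its direction in 7. Lum, lumican, had 20 injured and 31 control counts, 1.90-fold lower (1.05 to 3.52). With no minimum of UMIs or genes per cell, Lum turned to a ratio of 1.80. Of the 2 remaining collagens, Col13a1, a transmembrane collagen, had 1 injured and 50 control counts, a ratio of 0.0163 (0.000404 to 0.0950). Col14a1, a fibril-associated collagen, had 210 and 208 counts, a ratio of 0.822.

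For most matrix genes the stromal cells were the main source in both libraries. The stromal class, 1 cluster with fibroblast, pericyte and mesothelial markers, held 55 injured and 90 control cells. It carried 63.7% of the injured and 68.8% of the control matrix UMIs other than Fn1. For 29 of 40 genes (injured) and 30 of 40 (control) it held more counts than any other class. The alveolar epithelial class held 17.2% of the injured and 1.64% of the control matrix UMIs other than Fn1, and the blood endothelial class held 5.89% and 20.6%. Cell numbers moved with these shares: the epithelial class had 102 injured and 83 control cells with median depths of 8136 and 1218 UMIs, and the endothelial class had 91 and 388 cells. The part of cell number and depth in these shares was not tested.

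**Figure D2:**
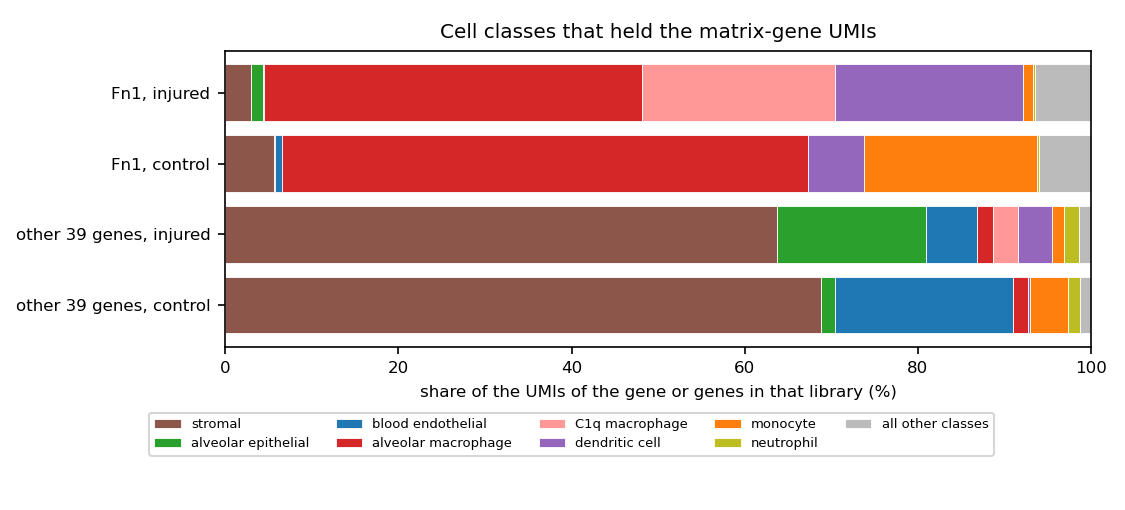
Share of the UMIs of Fn1 (upper 2 bars) and of the other 39 matrix genes together (lower 2 bars) held by each cell class in each library (percent of that library's UMIs of the genes). Stromal cells hold 63.7% and 68.8% of the other 39 genes, and alveolar macrophages hold 43.6% and 60.7% of Fn1.

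Collagen I transcripts lay almost wholly in stromal cells, which held 93.5% of injured and 97.6% of control Col1a1 counts. With cells thinned to 1000 UMIs, Col1a1 was detected in 16 of 36 injured (44.4%) and 28 of 63 control (44.4%) stromal cells. It was detected in 0 of 59 injured and 0 of 314 control B cells, which do not make it. With 0 set at a floor of 3 cells, these numbers allow shares of up to 5.08% and 0.955%. Unthinned, 58.2% of injured and 47.8% of control stromal cells held a Col1a1 UMI (medians 1658 and 1505.5 UMIs), as did 0% and 0.629% of B cells (3388 and 4492 UMIs). Thinning left out 19 injured and 27 control stromal cells and 4 control B cells with fewer UMIs.

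Within the stromal class 14 of 40 matrix genes were higher and 12 lower in the injured library, beside 23.9% and 22.0% of the 7188 genes that passed the count minimum there. Lox was at 218 CPM in injured and 43.2 CPM in control stromal cells, a ratio of 5.04 (3.01 to 9.04). Fbln2 was at 522 and 183 CPM, a ratio of 2.84, and Col5a2 at 674 and 254 CPM, a ratio of 2.66. Eln was at 2815 and 1160.3 CPM, a ratio of 2.43, but a single cell held 40.6% of the injured Eln counts. Fn1 (1697 and 669 CPM), Col6a1 (1024 and 469.5 CPM) and Col6a2 (734 and 327 CPM) had ratios of 2.54, 2.18 and 2.25. Without the mesothelial-like sub-cluster the stromal ratios of Col6a1 and Col6a2 were 0.817 and 1.03. Tnc had 54 injured counts in 3 cells, 72.2% of them in 1 cell, and 0 control counts, which makes it at least 9.31-fold higher against a floor of 3 counts in the control class.

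Among the genes lower in injured stroma, Col13a1 had 1 injured and 43 control counts, a ratio of 0.012 (0.000298 to 0.0707). Mfap4 was at 151 CPM in injured and 2234 CPM in control stromal cells, 14.8-fold lower (12.1 to 18.3). Postn (12.6 and 119 CPM) was 9.45-fold lower and Col15a1 (22.3 and 103 CPM), the collagen of vessel-associated basement membrane zones, 4.59-fold lower. Ltbp4 (264 and 1047 CPM), Lum (26.5 and 83.7 CPM), Fbln1 (274 and 764 CPM), Fbln5 (58.6 and 157 CPM) and Lama4 (57.2 and 151 CPM) were between 2.64-fold and 3.97-fold lower. Lum turned to a ratio of 1.24 without the mesothelial-like sub-cluster. Among the abundant genes that did not pass, Col1a1 was at 1870.0 and 1638 CPM, Col1a2 at 2638 and 2105 CPM, Bgn at 2271 and 1562 CPM, and Col3a1 at 2236 and 3114 CPM. The mix of stromal cells differed beside these values. Summed over 20 fibroblast markers the level was 3200 CPM in injured and 8783 CPM in control stromal cells, of which 18 were detected in injured and all 20 in control cells, with Slc7a10 and Fgfr4 at 0 in the injured ones. The sum of 12 mesothelial markers was 9552 and 4336 CPM with all 12 detected in both, and that of 15 pericyte or smooth muscle markers was 462 and 1214 CPM, with 11 and 14 detected. Their part in the ratios of the class was not tested.

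The stromal class split into 5 sub-clusters that the libraries shared unequally. Sub-cluster 3 was mesothelial-like, with Msln and Upk3b among its leading genes, and held 18 injured and 8 control cells. Sub-cluster 4, led by Pi16, Clec3b and Serpinf1, markers of adventitial fibroblasts, was fibroblast-like and held 8 injured and 11 control cells. Sub-cluster 2, led by Inmt and Tcf21, markers of alveolar fibroblasts, held 1 injured and 26 control cells and was shallow, with a median of 1038 UMIs. Sub-clusters 0 and 1, with medians of 881 and 1220.5 UMIs, were shallow as well and stayed unnamed. They held 27 and 1 injured and 12 and 33 control cells. Sub-cluster 0 was led by Mgp, Acta2 and Tagln, and sub-cluster 1 by Cox4i2, Ndufa4l2 and Higd1b.

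**Figure D3:**
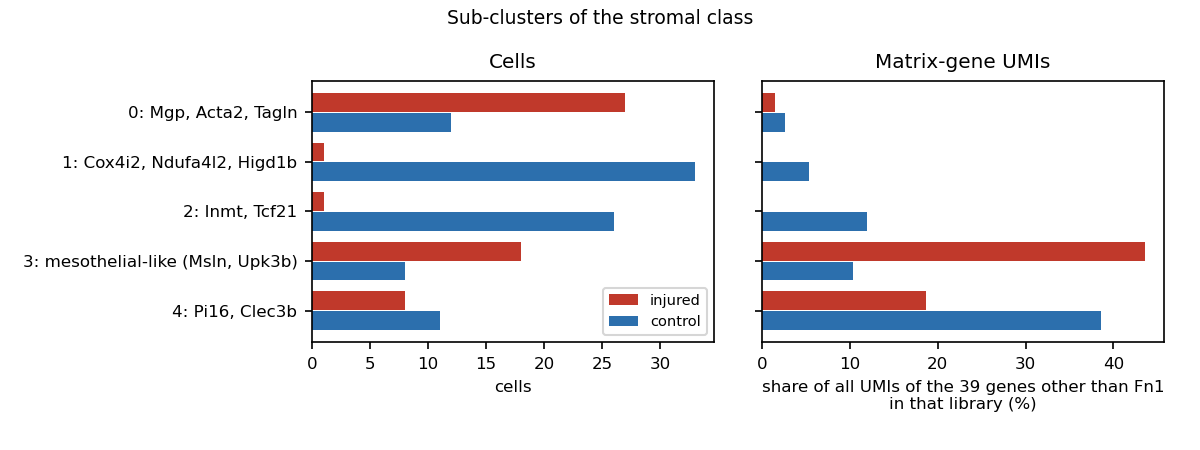
Number of cells (left) and share of each library's UMIs of the 39 matrix genes other than Fn1 (right, percent) in the 5 stromal sub-clusters, for the injured (red) and control (blue) library. The 18 injured mesothelial-like cells carry 43.6% of the injured matrix UMIs, and the 11 control cells of sub-cluster 4 carry 38.6% of the control matrix UMIs.

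A few deep cells therefore carried most stromal matrix transcripts. The 18 injured mesothelial-like cells, with a median of 30801 UMIs, held 43.6% of the injured matrix UMIs other than Fn1, against 10.3% for the 8 control cells with a median of 11892 UMIs. The cells of sub-cluster 4, with medians of 12984 and 13276 UMIs, held 18.6% of the injured and 38.6% of the control matrix UMIs. The Inmt and Tcf21 sub-cluster held 0.0150% and 11.9%. In its 26 control cells Mfap4 stood at 5139 CPM, and they held 38.4% of all control Mfap4 and 66.0% of all control Col13a1 counts. With 1 injured cell there, these levels have no injured counterpart.

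The deep sub-clusters were also compared between libraries one at a time, on 8 to 18 cells each. In the fibroblast-like sub-cluster 4, 19 of 37 matrix genes were higher and 9 lower in the injured library, beside 25.9% and 23.9% of 1985 genes. Col1a1 was at 6771 CPM in injured and 3109 CPM in control cells, a ratio of 2.18 (1.93 to 2.46), with a median per cell of 3969 and 2328 CPM. Col1a2 was at 8006 and 4184 CPM, a ratio of 1.91 (1.72 to 2.13), with medians of 7740.0 and 3766 CPM. The 8 injured cells ran from 2102 to 12846 CPM for Col1a2 and the 11 control cells from 459 to 8982 CPM, so the cells overlapped. Sparc was at 6975 and 3393 CPM, a ratio of 2.06, and Eln at 3074 and 1443 CPM, a ratio of 2.13.

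Lox was detected in all 8 injured cells of sub-cluster 4 and in 5 of its 11 control cells, at 569 and 46.1 CPM, a ratio of 12.3 (5.37 to 34.9). Fn1 was at 4594 and 745 CPM, a ratio of 6.17 (4.96 to 7.74). Thbs1 was at 1742 and 238 CPM, a ratio of 7.32, from 2 cells in each library, and all 53 Tnc counts lay in 2 injured cells. In the same cells Fbln1 was at 338 and 1459 CPM, 4.32-fold lower (3.04 to 6.29), Ltbp4 at 515 and 1988 CPM, 3.86-fold lower, and Dcn at 6487 and 12928 CPM, 1.99-fold lower (1.83 to 2.18). Mfap4, the gene furthest below in the class as a whole among those with over 100 counts, was at 924 and 1082 CPM here, a ratio of 0.854 (0.656 to 1.11). Col3a1 was at 5189 and 6264 CPM, a ratio of 0.828.

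The mesothelial-like cells showed another set. There 16 of 33 matrix genes were higher and 8 lower, beside 29.1% and 20.9% of 5023 genes. Bgn was at 2252 CPM in injured and 518 CPM in control cells, a ratio of 4.34 (3.19 to 6.06), with a median per cell of 1914 and 151 CPM. Col4a1 was at 641 and 148 CPM, a ratio of 4.33 (2.45 to 8.46), Col5a2 at 657 and 198 CPM, a ratio of 3.33, and Col6a1 at 1185 and 494 CPM, a ratio of 2.40. Eln was at 2647 and 272 CPM, a ratio of 9.75, but the medians per cell were 469 and 199 CPM and 1 injured cell reached 21115 CPM. Collagen I was split, with Col1a2 at 1659 and 716 CPM and Col1a1 at 939 and 988 CPM, ratios of 2.32 and 0.951. Dcn (3583 and 7839 CPM), Efemp1 (493 and 1136 CPM) and Mfap5 (81.9 and 272 CPM) were 2.19-fold, 2.30-fold and 3.32-fold lower. Mfap4 had no count in these cells in either library.

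**Figure D4:**
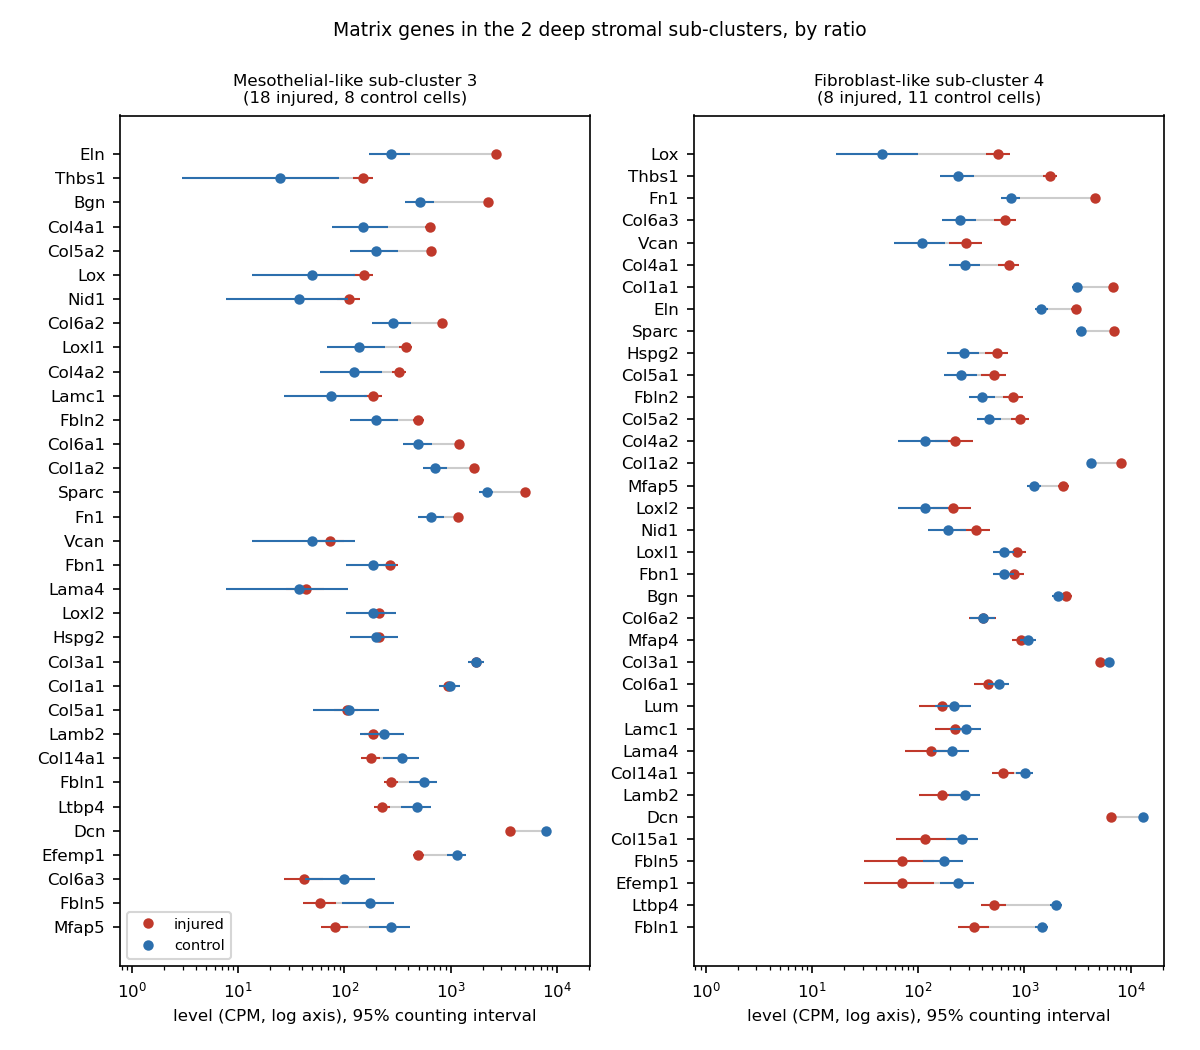
Level (CPM, log axis) of each matrix gene with at least 20 counts and a count in both libraries in the mesothelial-like (left) and fibroblast-like (right) stromal sub-cluster, ordered by ratio, for the injured (red) and control (blue) library with 95% counting intervals. Eln, Thbs1 and Bgn lead on the left, Lox, Thbs1 and Fn1 lead on the right, and Dcn and Ltbp4 lie lower in the injured cells of both. With the barcodes scored as doublets kept, which is not drawn, the Thbs1 ratio was 1.27 in the mesothelial-like and 2.99 in the fibroblast-like cells.

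With the barcodes scored as doublets kept, the mesothelial-like sub-cluster held 30 injured and 11 control cells, with 18 of 34 matrix genes higher and 6 lower, beside 27.8% and 19.9% of 7137 genes. The Pi16 and Clec3b sub-cluster then held 8 and 14 cells, with 19 of 37 higher and 9 lower, beside 24.4% and 24.8% of 2200 genes. In the mesothelial-like cells Bgn had a ratio of 3.37, Col4a1 of 5.85 and Eln of 7.25, and the Mfap5 ratio of 0.677 no longer passed the rule. Thbs1 did not pass there either, at a ratio of 1.27 (0.758 to 2.28), and its ratio in the fibroblast-like cells was 2.99 (2.32 to 3.89). In the fibroblast-like cells the ratio of Lox was 10.9 and that of Col1a1 2.20, and Fbln1 was 4.18-fold lower.

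Of the basement membrane genes 6 of 9 were higher in the whole library and 2 lower, and the collagen IV pair was higher in endothelial, epithelial and stromal cells by summed counts. Weighted by cell, the whole-library ratios were 0.849 for Col4a1 and 0.90 for Col4a2, and in stromal cells 1.13 and 0.684. Col4a1 was at 90.8 injured and 53.9 control CPM, a ratio of 1.69 (1.55 to 1.83), and Col4a2 at 51.9 and 24.8 CPM, a ratio of 2.09 (1.86 to 2.35). The ratio expected from the class shares of UMIs alone, with every class at its control level, was 0.619 for Col4a1 and 0.707 for Col4a2. Such shares hold depth per cell as well as cell number, and classes with under 20 cells in a library were pooled. The expected ratio was above 1 for Hspg2 (1.83), Lama4 (1.695), Lamb2 (1.53), Lamc1 (1.198) and Col15a1 (1.07). It was below 1 for Col18a1 (0.907) and Nid1 (0.726). For the fibrillar collagens it was 1.55 for Col1a1, 1.53 for Col1a2 and Col3a1, 1.39 for Col5a2 and 1.29 for Col5a1. Their observed ratios were 1.88 (Col1a1), 1.94 (Col1a2), 1.12 (Col3a1), 3.38 (Col5a2) and 1.69 (Col5a1). The part of class shares in these ratios was not tested. Hspg2, perlecan, was at 24.7 and 6.16 CPM, a ratio of 4.01, and the laminin chains Lamc1 and Lamb2 had ratios of 2.55 and 2.0. The Lamb2 ratio turned below 1 weighted by cell and with cells thinned to 1000 UMIs, with a lowest value of 0.634. Col18a1, the source of endostatin, had 87 and 44 counts, a ratio of 1.61, which turned to 0.870 weighted by cell. Nid1, nidogen-1, which links laminin to collagen IV, was at 10.5 and 10.7 CPM. Lama4, the laminin chain of endothelial membranes, had 46 and 113 counts, 3.02-fold lower, and Col15a1 had 100 and 129 counts, 1.58-fold lower. Weighted by cell, Col15a1 turned to a ratio of 1.41.

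In blood endothelial cells 9 of 22 matrix genes were higher and 9 lower, beside 19.4% and 19.6% of 7707 genes. Weighted by cell, 14 were higher and 4 lower, beside 22.8% and 27.8%, and Col3a1, Postn and Col1a2 turned from lower to a ratio above 1. Col4a1 was at 1864 CPM in injured and 656 CPM in control endothelial cells, a ratio of 2.84 (2.54 to 3.18). Col4a2 was at 1090.4 and 289.5 CPM, a ratio of 3.77 (3.22 to 4.41). Thinned to 1000 UMIs, Col4a1 was detected in 40 of 58 injured (69.0%) and 91 of 235 control (38.7%) endothelial cells, beside 0 of 59 and 0 of 314 B cells. Sparc (2219 and 887 CPM), Lamb2 (169 and 72.1 CPM) and Nid1 (221 and 101 CPM) had ratios of 2.50, 2.35 and 2.18, and Lamc1 a ratio of 1.58 (0.929 to 2.60). Ltbp4 was at 35.2 and 220.2 CPM, 6.26-fold lower (3.44 to 12.7).

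With 3 injured counts each, Fbln5 had a ratio of 0.213 (0.0425 to 0.662) and Lama4 a ratio of 0.218 (0.0434 to 0.677) in endothelial cells. Col18a1 had 36 and 22 counts there, a ratio of 5.58 (3.2 to 9.96), with 41.7% of the injured counts in 1 cell. Different endothelial cells stood behind the libraries. A sub-cluster with Vwf and Edn1, genes of larger vessels, held 57 injured and 6 control cells, and 2 sub-clusters of capillary-like cells held 79 and 56 control cells and no injured cell. In the aerocyte-like sub-cluster, with 13 injured and 61 control cells, Col4a1 was at a ratio of 3.88 (2.98 to 5.08) and Col4a2 at 6.49 (4.58 to 9.39). Its cells had median depths of 7585 injured and 1213 control UMIs, and no share over all genes was computed there. The part of depth in these 2 ratios was not tested.

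In alveolar epithelial cells 12 of 15 matrix genes were higher and 1 lower, beside 54.2% and 12.2% of 7717 genes. Col4a1 was at 511 CPM in injured and 161 CPM in control cells, a ratio of 3.18 (2.12 to 4.99), and Col4a2 at 328 and 73.8 CPM, a ratio of 4.44 (2.46 to 8.97). Hspg2 was at 199 and 67.1 CPM, a ratio of 2.96, Lamb2 at 153 and 60.4 CPM, a ratio of 2.53, and Lamc1 at 96.7 and 26.8 CPM, a ratio of 3.60. Sparc was at 2381 and 1100.4 CPM, a ratio of 2.16 (1.85 to 2.55). Col6a1 had 137 injured and 0 control counts, at least 5.14-fold higher against 3 counts in the control class. Fbln5 was at 181 and 148 CPM and did not pass, yet these cells held 77.3% of injured and 16.7% of control Fbln5 counts. A single sub-cluster with AT1-like markers, led by Gprc5a and Clu, held 48 injured and 2 control cells at a median of 19345 injured UMIs. Without it 5 of 6 matrix genes were higher and 0 lower, beside 33.9% and 21.1% of all genes. In the shallower AT1-like sub-cluster led by Ager and Krt7, with 45 injured and 19 control cells, 1 of 6 matrix genes was higher and 2 were lower, beside 39% and 25.4% of 1064 genes. Summed AT2 markers were at 9023 CPM in injured and 36567 CPM in control epithelial cells and summed AT1 markers at 16732 and 15412 CPM, and their part in these ratios was not tested. In the stromal class Col4a1 was at 635 and 316 CPM and Col4a2 at 301 and 165 CPM, ratios of 2.01 and 1.83.

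**Figure D5:**
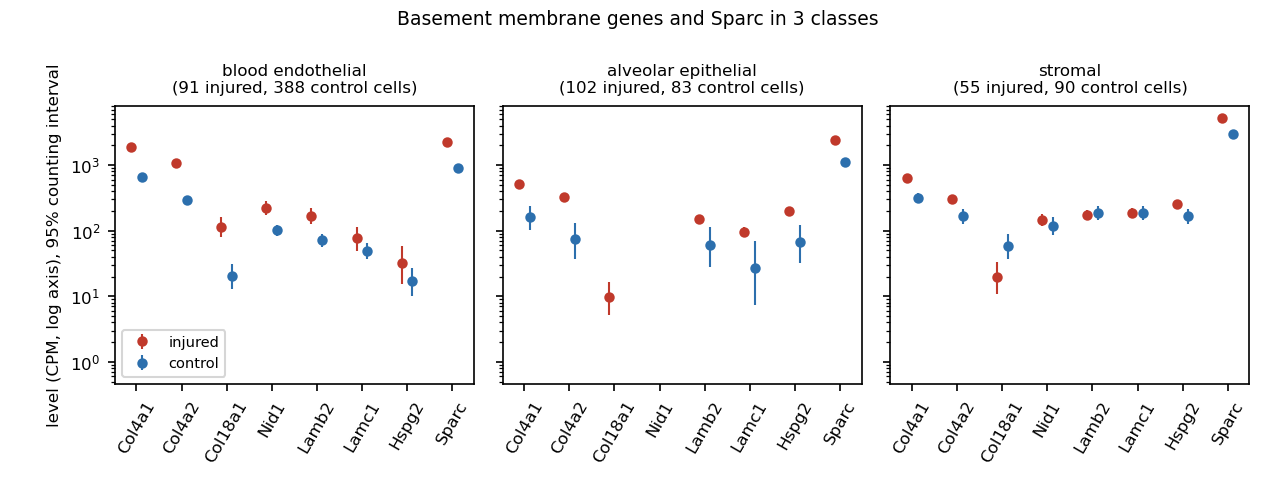
Level (CPM, log axis) of 7 basement membrane genes and Sparc in blood endothelial, alveolar epithelial and stromal cells of the injured (red) and control (blue) library, with 95% counting intervals and no point where a library had 0 counts. Col4a1 and Col4a2 lie higher in the injured library in all 3 classes by summed counts (stromal Col4a2 is at 0.684 weighted by cell), and Col18a1 is higher in injured endothelial and lower in injured stromal cells.

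Fibronectin came mainly from macrophages and other myeloid cells. Alveolar macrophages held 43.6% of injured and 60.7% of control Fn1 counts, C1q macrophages 22.4% of the injured counts, and dendritic cells 21.6% and 6.45%. In alveolar macrophages 6 of 9 matrix genes were higher and 2 lower, beside 13.7% and 20.2% of 10654 genes. Their Fn1 level was 2674 injured and 435 control CPM, a ratio of 6.15 (5.90 to 6.41). Cluster 3 held all but 1 of the 324 injured alveolar macrophages, and clusters 4 and 19 held the 402 control ones, so the libraries did not share clusters here.

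Thinned to 1000 UMIs, Fn1 was detected in 289 of 323 injured (89.5%) and 105 of 362 control (29.0%) alveolar macrophages. Lymphocytes as background showed 6 of 235 (2.55%) and 0 of 391, and at a floor of 3 cells 0 of 391 allows a share of up to 0.767%. The unthinned lymphocyte shares were 15.7% and 2.04% at medians of 4740.0 and 5509 UMIs, and those of alveolar macrophages 99.1% and 64.7% at 19590.5 and 16244.5 UMIs. C1q macrophages, with 274 injured cells and 1 control cell, carried Fn1 at 4294 CPM and have no control group. The whole-library Fn1 ratio expected from class shares of UMIs alone was 1.02. For that value C1q macrophages were pooled with ciliated and plasmacytoid dendritic cells. The injured C1q macrophages, with 10.9% of injured UMIs, thus entered at the level of a control pool that held 1 C1q macrophage. Their own part in the Fn1 ratio was not tested.

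Dendritic cells and monocytes shared this direction. In dendritic cells 4 of 5 matrix genes were higher and 0 lower, beside 30.0% and 12.0% of 9327 genes, and in monocytes 3 of 4 were higher and 1 lower, beside 20% and 21.7% of 7165 genes. The dendritic class joined clusters 11, 15 and 22, with 128, 98 and 42 injured and 38, 10 and 32 control cells. Its median depths were 11507.5 injured and 3255 control UMIs, and the part of mix and depth in its ratios was not tested. Fn1 was at 2718 and 453 CPM in dendritic cells, a ratio of 6.00 (5.33 to 6.79), and at 2143 and 503 CPM in the 26 injured and 203 control monocytes, a ratio of 4.26 (3.80 to 4.77). Fn1 was not higher in myeloid cells alone. In alveolar epithelial cells its ratio was 17.1 or more in 15 alternatives, and in the highest of them the control count was 0. That class held 149041 control UMIs, so its Fn1 ratio rests on very few control counts. In blood endothelial cells Fn1 was at 44.8 and 36.5 CPM, a ratio of 1.23 (0.614 to 2.31), and did not pass.

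Versican and thrombospondin-1 also came largely from myeloid cells, with the most counts in dendritic cells in the injured and in monocytes in the control library. Dendritic cells held 41.3% of injured Vcan counts and monocytes 61.7% of the control ones. Vcan was at 539 CPM in injured and 29.0 CPM in control monocytes, a ratio of 18.6 (13.3 to 26.4). In dendritic cells it had 349 and 0 counts, at least 21.9-fold higher against 3 counts, and in alveolar macrophages 198 and 5 counts, a ratio of 35.6 (15 to 111). Thbs1 was at 1456 and 337 CPM in monocytes, a ratio of 4.32 (3.76 to 4.96). In dendritic cells it had 792 and 8 counts, a ratio of 18.6 (9.41 to 43.3), with all 8 control counts in 1 cell.

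In neutrophils 2 of 4 matrix genes were higher and 1 lower, beside 52.6% and 9.55% of 6230 genes. Thbs1 was the gene on the lower side, at 365 and 583 CPM in 589 injured and 125 control neutrophils, 1.60-fold lower (1.34 to 1.89). The class joined 2 clusters that the libraries shared unequally. Cluster 0, with Csf1 and Cd177 among its leading genes, held 428 injured and 10 control cells, and cluster 6, led by Retnlg, held 161 and 115. The part of this mix in the ratios was not tested. Col15a1, with its highest count in alveolar macrophages in both libraries, had 22 injured and 0 control counts in neutrophils, at least 2.04-fold higher. In alveolar macrophages it had 25 and 78 counts, 3.47-fold lower (2.18 to 5.68).

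Few matrix genes reached 20 counts in lymphocytes and airway cells. In B cells 1 of 2 was higher and 0 lower, beside 21.3% and 19.6% of 7277 genes. In T, NK and ILC2 cells 3 of 3 were higher, beside 34.0% higher and 6.71% lower of 9123 genes, and in airway secretory cells 3 of 3, beside 40.7% higher and 10.6% lower of 2830 genes.

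Genes that act on the same proteins were counted by the same rule in the whole library, beside the 21.2% and 15.7% of all genes. Of the other collagen chains 8 of 9 were higher and 0 lower, led by the second collagen IV network of the alveolar membrane: Col4a4 had 535 injured and 43 control counts, Col4a3 311 and 26, and Col4a5 158 and 26. Their ratios were 10.1, 9.74 and 4.95, and those expected from class shares of UMIs alone were 5.85, 5.56 and 2.50. These shares hold depth per cell as well as cell number. The alveolar epithelial class had 6.71% of injured and 0.928% of control UMIs, but 4.43% and 3.61% of the cells. Of the other basement membrane genes 7 of 11 were higher and 1 lower. Sparcl1 had a ratio of 0.790, Npnt, nephronectin, of 1.61, and Lamb3, a laminin-332 chain, of 1.16. Of the other glycoproteins and proteoglycans 7 of 18 were higher and 8 lower, with Tgfbi at 1123 and 280.4 CPM, Igfbp7 at a ratio of 1.14 and Emilin2 at 2.50.

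Enzymes that fold and modify collagen showed 7 of 16 higher and 1 lower. P4hb, the shared subunit of prolyl 4-hydroxylase, had a ratio of 2.37, while Ppib and Colgalt1 did not pass at 0.984 and 1.29. Of 6 propeptide-processing genes 2 were higher, Pcolce at 1.66 and the procollagen C-proteinase Bmp1 at 2.65, and 2 were lower, among them Pcolce2, 8.92-fold. None of the 3 other cross-linking genes passed: Tgm2 had a ratio of 1.17, Pxdn of 0.708 and Loxl3 of 0.814. In the TGF-beta pathway 3 of 17 were higher and 2 lower, and Tgfb1, Skil and Tgfbr2 had ratios of 0.723, 1.30 and 0.772. Of the matrix receptors 10 of 18 were higher and 3 lower. Cd44, a hyaluronan receptor, had a ratio of 0.972, Itgb1, the common integrin chain, of 1.12, and Sdc4, syndecan-4, of 5.33.

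The same lists were counted within the stromal class, where 23.9% of all genes were higher and 22.0% lower. Folding enzymes were 4 of 15 higher and 3 lower, shares near those of all genes, with P4hb at 357 and 146 CPM and Serpinh1, the collagen chaperone HSP47, at 502 and 861 CPM. Other glycoproteins and proteoglycans were 1 of 15 higher and 6 lower. There Prelp was at 82.3 and 424 CPM, 5.15-fold lower, and Ogn at 82.3 and 672 CPM, 8.16-fold lower. The receptors were 8 of 15 higher and 4 lower, with Itga8, an integrin chain of alveolar fibroblasts, at 2 injured and 82 control counts. Pcolce2, an enhancer of procollagen processing, was at 89.3 and 1279 CPM, 14.3-fold lower.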

How the data were processed

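The authors deposited counts of unique molecular identifiers (UMIs) per gene and cell barcode, made with Cell Ranger 4.0.0, per the file headers. The submitters' processing notes also name STAR 2.7.2c, featureCounts 1.6.3, DESeq2 1.26.0 and 1.28.1 and build GRCm38, with no role stated. Cells with at least 500 UMIs, at least 200 genes and at most 15% mitochondrial UMIs were kept. In each library 44 barcodes with the highest simulated-neighbour doublet scores were removed, a step that also removed deep stromal barcodes. Cells were clustered over 2000 variable genes and 30 principal components (20 neighbours, Leiden resolution 1, 25 clusters), leaving out 149 genes. Clusters were named from marker lists. Counts were summed per library and class and divided by all UMIs of those cells, per 1000000. A class was compared where each library held 20 or more of its cells. Intervals are exact 95% binomial, Poisson or conditional intervals. A gene at 0 was set to a floor of 3 counts, and a share with 0 cells to a floor of 3 cells. Depth was 19719980 injured and 16061317 control UMIs over the kept cells. No test was run, since each group has 1 library. The size rule was checked on simulated counts.

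The 40 genes, the related lists and the markers were chosen with earlier results of these data known. Genes were named per class by a rule of at least 50 counts there and at least 20% of their highest class level. Of these, up to 8 highest and 8 lowest ratios and 4 abundant genes that did not pass were taken. Genes in sub-clusters, with fewer counts or under that level were named after their values were seen. Up to 3 genes per related list had the most counts, and up to 3 passed the rule in a class described. Alternatives covered filters, doublets, depth, clustering, pseudocount and size rule. Software was Python 3.11.15, numpy 2.4.6, scipy 1.17.1, pandas 2.3.3, scikit-learn 1.9.0, python-igraph 0.11.9, leidenalg 0.10.2 and matplotlib 3.10.9.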

Additional observations from a re-analysis of the deposited data

Results flagged for a closer look

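Col18a1 differed in direction between classes: its injured to control ratio was 5.58 (3.2 to 9.96) in blood endothelial cells, while it was 3.04-fold lower (1.49 to 6.42) in stromal cells. Thbs1 had a ratio of 18.6 (9.41 to 43.3) in dendritic cells and was 1.60-fold lower (1.34 to 1.89) in neutrophils. Both of these classes joined clusters that the libraries shared unequally. The difference between classes was not tested in either case, since each group has 1 library.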

How the results depend on the processing

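Of 192 values recomputed under an alternative, 137 kept their direction and stayed within 1.5 times or the counting interval, 53 moved and 2 reversed; the cause was not tested except where fewer genes or cells follow from the setting. Weighting each cell the same gave 8 whole-library genes higher and a median log2 ratio of -0.031 (reversed), 2 epithelial genes lower, 14 endothelial genes higher and 4 lower, and 1 alveolar macrophage gene lower. Thinning gave 10 whole-library genes higher and a median of 5.488e-05, 3 stromal lower, 3 epithelial higher and 0 lower, 5 endothelial higher and 2 lower, and 1 macrophage gene higher and 0 lower. Leaving out the mesothelial-like cells gave 12 higher, 15 lower and a median of -0.013 (reversed), and leaving out the deep epithelial cells 5 epithelial genes higher and 0 lower. No count minimum gave 24 epithelial genes higher and 4 lower, 20 endothelial lower, and 23 macrophage genes higher and 8 lower. A minimum of 100 counts gave 6 stromal, 0 epithelial and 3 endothelial genes lower, and 3 macrophage genes higher and 1 lower. A 2-fold rule gave 15 higher and 5 lower in the whole library and 5 endothelial lower. Pseudocounts of 1 and 50 CPM gave medians of 0.80 and 0.14. A mitochondrial limit of 25% gave 5 lower, a median of 0.73 and 10 macrophage genes higher, and no minimum of UMIs or genes 5 lower and a median of 0.75. With no such minimum Lum and Fbln1 turned from lower to a ratio above 1. Keeping doublets gave 5 lower. Leiden resolution 0.5, and clustering with the matrix genes, each gave 10 macrophage genes higher, and the latter put control shares at 67.6% stromal and 21.8% endothelial. Clustering each library alone put the injured macrophage share at 1.73% and the control stromal share at 67.4%. With Fn1 counted, injured shares were 30.1% stromal, 8.5% epithelial, 2.65% endothelial and 25% macrophage, and control shares 55.2%, 1.29%, 16.3% and 14.4%. No paired analysis was possible because each group has 1 library and no comparison was tested. Depth limits the shallow stromal, endothelial and epithelial sub-clusters.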
